A study of Mus musculus with 4 samples.

Results

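Natural Th1 cells (nTh1) were compared with classical Th1 cells (cTh1), the contrast named in the title of the series, as the difference between 1 Affymetrix array of each. The nTh1 cells were CD4+CD62L+CXCR3+ cells sorted from the thymus of CIITAtg mice and were not cultured, as far as the labels say. The cTh1 cells were grown from CD4+CD62Lhi cells of the wild-type spleen. They spent 5 days with beads against CD3 and CD28, with a blocking antibody to IL-4, with IL-2 at 50 U/ml and with IL-12 at 2 ng/ml. Both kinds of mice were on the C57BL/6 background and 8 weeks old. CIITAtg denotes a transgene of CIITA, the coactivator that switches on MHC class II genes. The labels leave out the promoter that drives it and the number of animals behind each array. The remaining arrays of the series are TT naive cells (CD4+CD62L+CXCR3- thymocytes of CIITAtg mice) and naive CD4+CD62Lhi cells of the wild-type spleen. Those 2 arrays are given below as levels for reference.

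All 22180 genes read by a probe set with exactly 1 gene symbol entered the comparison, each through its probe set of highest mean across the 4 arrays. Values are log2 levels, and every difference is nTh1 minus cTh1, so that a difference of 1 is a doubling of the deposited level and a negative value is lower in nTh1. A gene was counted when at least 1 of the 2 arrays reached the median of all values in the table, 6.61, which left 12841 genes. Where 1 of the 2 levels lay below 6.61 the fold is given as a lower bound against 6.61, and a log2 difference is the measured one. With 1 array a side no test was made. The SD of the difference between probe sets of the same gene was 0.481 over 480 genes, and it leaves out the spread between animals, sorts and cultures. Tissue, genotype and culture differ together between these arrays and cannot be told apart.

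Th1 cells are CD4 helper T cells that make interferon gamma and arm macrophages against intracellular microbes. In the classical path a naive T cell meets antigen and IL-12, the IL-12 receptor signals through JAK2, TYK2 and STAT4, and the factor T-bet (Tbx21) turns on Ifng and further Th1 genes. T cells selected in the thymus on MHC class II carried by other thymocytes can acquire effector traits before they leave the thymus, often with the factor PLZF (Zbtb16).

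The sorted and defining genes were read first. The T cell genes Cd3e, Cd3g, Thy1 and Cd4 stood at 13.11, 12.94, 11.76 and 12.72 in cTh1 and at 12.90, 12.96, 11.56 and 12.42 in nTh1. Cxcr3, the chemokine receptor used to sort nTh1, was at 9.91 in nTh1 and 10.53 in cTh1, against 7.76 in TT naive. The gene for CD62L was not analysed here. The array labelled naive went against its label, with Cxcr3 at 9.80, Tbx21 at 9.81 and Zbtb16 at 12.23. Its class II genes H2-Aa and H2-Eb1, at 12.66 and 12.49, were near those of nTh1 at 12.66 and 12.53. Y-linked genes, given below, were above the filter in TT naive and on the array labelled naive, and below it in cTh1 and nTh1. These pairs cross the labelled tissue and genotype. No value here settles whether labels were exchanged between arrays, and every direction rests on the nTh1 label as deposited. The array labelled naive therefore serves as a level only. Counts with it in place of nTh1 are given beside the lists described here whose median it moved by more than 0.481, and beside a few others. Choosing probe sets and the level filter on the cTh1 and nTh1 arrays alone put 444 genes past 2-fold on the higher side and 1069 on the lower.

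Of the 12841 genes, 444 (3.46%) were higher in nTh1 by 2-fold or more and 1066 (8.30%) were lower by as much. The higher genes were thus 29.4% of those past 2-fold. Under quantile normalization over the named genes this share was 41.9%, with 619 higher and 860 lower, and the median difference of all genes moved by 0.13. Probe sets with no gene symbol went the other way. Of 8291 such probe sets that passed the filter, 2931 lay higher in nTh1 by 2-fold or more and 297 lower, with a median of 0.52, so the excess on the lower side is one of named genes. The other 11331 named genes (88.2%) lay within 2-fold. Large differences were mostly on the lower side, with 248 genes at least 4-fold lower and 71 higher, and 64 genes at least 8-fold lower and 10 higher. The 5th and 95th percentiles of the difference were -1.32 and 0.85, and its median was -0.08. The cTh1 array accounted for many of the extreme levels. Among the 1066 lower genes, cTh1 stood at least 2-fold above each of the other 3 arrays in 468, while nTh1 stood at least 2-fold below each of the others in 33. Among the 444 higher genes, cTh1 was at least 2-fold below the others in 145 and nTh1 at least 2-fold above them in 42.

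**Figure D1:**
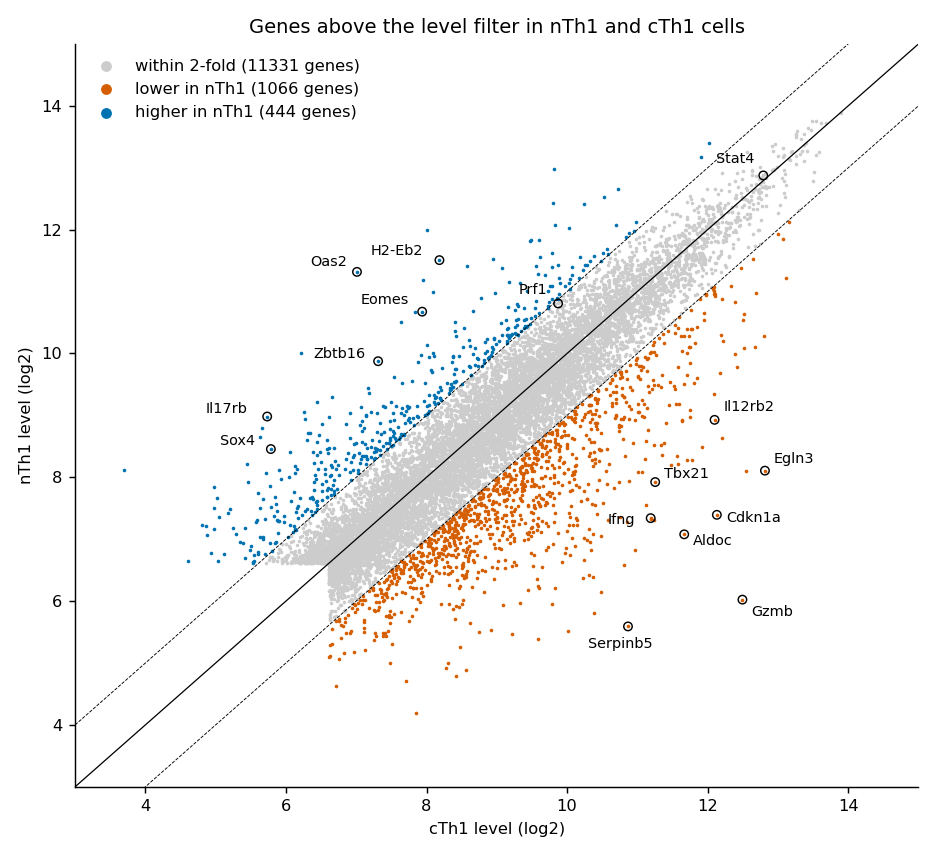
Level in cTh1 (x axis, log2) against level in nTh1 (y axis, log2) for the 12841 genes above the level filter, 1 array each. The solid line marks equal levels and the dashed lines 2-fold; circled genes are named in the text. Stat4 lies near the line at 12.79 and 12.88, Gzmb far below it at 12.50 and 6.02, and Oas2 far above it at 7.01 and 11.32.

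Markers of other cells differed between the 2 arrays as well. A marker above the filter on 1 of the 2 arrays alone could pass 2-fold only toward that array, so its direction was set by the filter. B cell markers at or above the filter numbered 15 in cTh1 and 10 in nTh1, and CD8 T cell markers 6 and 4. Of 15 B cell markers above the filter 11 were at least 2-fold lower in nTh1, and the summed linear level of the 17 measured markers was 8484.6 in cTh1 and 2435.2 in nTh1. With the array labelled naive in place of nTh1, 13 of 15 were lower. Cd79a, a chain of the B cell receptor complex, was at 10.29 in cTh1 and 7.64 in nTh1, and Ms4a1, which encodes CD20, at 8.33 and 6.45. Cd8a, the CD8 alpha chain, was at 10.31 in cTh1 and 6.42 in nTh1, and 3 of 6 CD8 T cell markers were at least 2-fold lower and 1, Eomes, was higher, with sums of 5730.8 and 2933.2. Of 7 natural killer receptors above the filter 6 were lower and 1 higher, and the 18 measured summed to 4256.5 in cTh1 and 1317.4 in nTh1. Of these 18, 6 were at or above the filter in cTh1 and 3 in nTh1, so the filter set the direction of most of the 7. The array labelled naive gave 3 of 7 lower and 1 higher. Dendritic cell markers were lower in 3 of 9 cases and higher in 0. Their sums over 12 markers, 9688.9 and 3827.1, differed through Ly6c2, which activated T cells also carry, and were 2557.6 and 2586.5 without it. Myeloid markers were on the other side, with 9 of 23 at least 2-fold higher in nTh1, 1 lower, and sums over 28 markers of 3850.1 in cTh1 and 6654.6 in nTh1. Of these 28, 13 were at or above the filter in cTh1 and 23 in nTh1. Those that passed through nTh1 alone could be counted only as higher. The array labelled naive gave 4 of 15 higher and 2 lower. Lyz2, the macrophage lysozyme, was at 7.17 and 9.44, C1qb, a complement chain, at 6.61 and 8.98, and the granulocyte gene Ngp at 5.66 and 8.79. The 3 measured Y-linked genes were below the filter in cTh1 and nTh1, with sums of 80.1 and 86.5, and above it in TT naive and on the naive-labelled array, at 949.5 and 847.8. In bulk samples such as these, fewer cells of a type and less RNA per cell cannot be told apart. The part of these cells in the differences below was not tested.

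Genes of the Th1 programme were lower in nTh1 or within 2-fold, with Ifngr2 and Txk higher by 0.89 and 0.85. Of the 26 listed genes that passed the filter, 13 were lower by 2-fold or more and 0 higher by as much, with a median of -1.17 against -0.08 over all genes. The cTh1 array was the highest of the 4 in 23 of the 26, against 35.2% of all genes. Set against cTh1, the array labelled naive also had 13 of 26 lower and 0 higher, with a median of -1.06. The median of TT naive minus cTh1 was -2.17. Ifng, the defining cytokine, was at 8.80 on the naive-labelled array, 5.88 in TT naive, 11.19 in cTh1 and 7.34 in nTh1. It was thus 14.4-fold lower in nTh1 than in cTh1, and nTh1 still lay above TT naive. Tnf, an inflammatory cytokine, was at 10.49, 9.95, 11.14 and 9.13 in the same order, and nTh1 was the lowest of the 4 arrays. The chemokine Ccl5 was at 11.11 in cTh1 and 8.30 in nTh1, whereas its relatives Ccl3 and Ccl4 differed by -0.13 and -0.10. Ccl3 stood at 8.13 in cTh1 and 8.00 in nTh1, above the 6.05 of TT naive. Csf2, which encodes GM-CSF, had probe sets that disagreed. The probe set with the highest mean stayed below the filter with a difference of -0.06, and the probe set chosen on the cTh1 and nTh1 arrays alone gave -2.94.

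The receptors for IL-12 and IL-18 and the proteins that carry their signal differed in pattern. Il12rb2, the inducible chain of the IL-12 receptor, was at 8.83 on the naive-labelled array, 6.69 in TT naive, 12.10 in cTh1 and 8.93 in nTh1. Its partner Il12rb1 was at 10.06 in cTh1 and 7.54 in nTh1, equal to TT naive at 7.53. The IL-18 receptor chains Il18r1 and Il18rap were 11.4-fold and 11.9-fold lower in nTh1. Il18r1 was at 8.27 in both thymic arrays, so of these 4 chains Il12rb2 and Il18rap were the ones more than 1 log2 unit above TT naive in nTh1. Several proteins inside the cell were near equal. Stat4, the factor phosphorylated after IL-12 binding, was at 11.81 on the naive-labelled array, 11.36 in TT naive, 12.79 in cTh1 and 12.88 in nTh1. The receptor kinases Jak2 and Tyk2 differed by -0.03 and 0.08. Of the 24 genes listed for IL-12, IL-18 and interferon signalling, 5 were at least 2-fold lower and 0 higher. These 5 were the receptor chains above and Irak2, a kinase downstream of the IL-18 receptor, at 10.22 in cTh1 and 8.47 in nTh1. The ligand-binding chain of the interferon gamma receptor, Ifngr1, was at 12.83 and 12.67. The signalling chain Ifngr2 was at 9.67 in cTh1 and 10.56 in nTh1, a difference of 0.89.

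The T-box factors stood on opposite sides. Tbx21 was at 9.81 on the naive-labelled array, 7.11 in TT naive, 11.25 in cTh1 and 7.92 in nTh1, which is 10.1-fold lower in nTh1. Eomes, the related factor of memory and innate-like lymphocytes, was at 10.03, 8.84, 7.94 and 10.68, which is 6.67-fold higher in nTh1 than in cTh1 and the highest of the 4 arrays. Runx3, a partner of T-bet at the Ifng locus, was at 11.09 in cTh1 and 10.70 in nTh1. Bhlhe40, a factor that restrains Il10, was at 11.56 and 8.34, and Hopx, a factor of long-lived Th1 cells, at 9.13 and 7.54. Hlx and Irf1 differed by -0.36 and -0.74. The T-box half-site TCACAC (either strand) was found in the promoter window of 4 of the 24 measured Th1 genes with a RefSeq window. That is 12.9% of their 31 windows against 14.5% of all 32851 windows, each running from 250 bases before to 50 bases after a start.

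**Figure D2:**
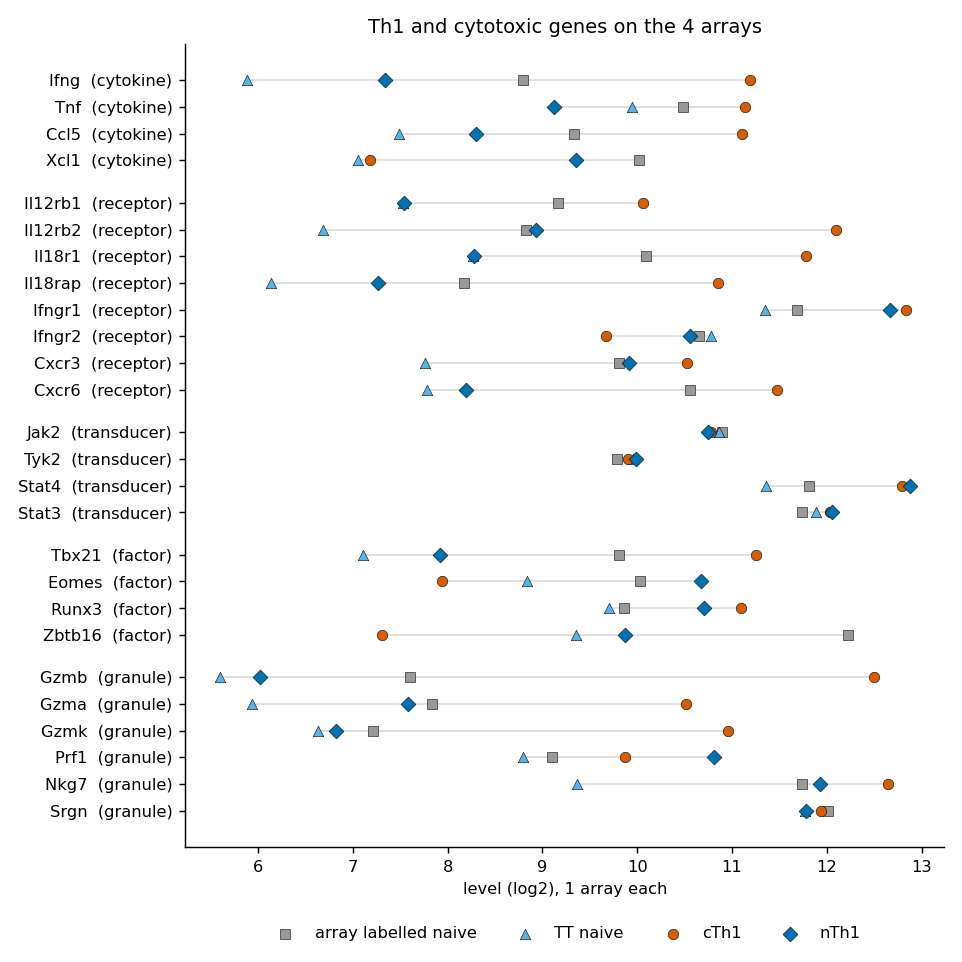
Level (x axis, log2) of Th1 and cytotoxic genes on the 4 arrays, grouped by role on the y axis, with 1 array per symbol. The receptors Il12rb1, Il12rb2, Il18r1 and Il18rap have cTh1 as the highest array, followed by the array labelled naive for all but Il12rb2, the transducers Jak2, Tyk2 and Stat4 have cTh1 and nTh1 side by side, and Eomes and Zbtb16 have cTh1 as the lowest array.

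Of 5 granzymes above the filter 4 were at least 2-fold lower in nTh1, while perforin and several granule proteins stayed within 2-fold. Granzymes are serine proteases that enter a target cell through pores made by perforin and trigger its death. Gzmb was at 7.61 on the naive-labelled array, 5.59 in TT naive, 12.50 in cTh1 and 6.02 in nTh1. It was at least 59.2-fold lower in nTh1, the largest of these bounds and folds over the 12841 genes, and both thymic arrays were below the filter. Gzmk was at 10.96 in cTh1 and 6.82 in nTh1, Gzma at 10.52 and 7.58, and Gzmc at 6.72 and 4.63. Gzmm differed by 0.16. Prf1, which encodes perforin, was at 9.10 on the naive-labelled array, 8.79 in TT naive, 9.87 in cTh1 and 10.81 in nTh1. The level in nTh1 was the highest of the 4, and the difference from cTh1, 0.94, stayed under 2-fold. Nkg7, a granule membrane protein, was at 12.64 in cTh1 and 11.92 in nTh1, against 9.36 in TT naive. Srgn, the proteoglycan that packs granzymes, and Ctsc, the protease that activates them, differed by -0.17 and -0.05. The death ligand Fasl was at 10.12 and 9.60. Stx11, a fusion protein of granule release, was 4.96-fold lower in nTh1, while its partners Stxbp2 and Unc13d differed by -0.46 and -0.38. Across the cytotoxic genes 5 of 22 were lower by 2-fold or more and 0 higher, with a median of -0.49. Gzmk is also among the 6 CD8 T cell markers, of which 3 were at least 2-fold lower, 1 was higher and 2 were within 2-fold. The part of CD8 T cells in the granzyme levels was not tested.

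Among other helper cell factors, 6 of 20 were at least 2-fold lower and 2 higher. The 2 higher ones were Eomes and Zbtb16. Zbtb16 was at 12.23 on the naive-labelled array, 9.36 in TT naive, 7.31 in cTh1 and 9.88 in nTh1, so both thymic arrays and the array labelled naive lay above cTh1. Beside Tbx21 the lower ones were Nfil3 (10.24 in cTh1 and 7.78 in nTh1), Prdm1, which encodes Blimp-1 (9.59 and 7.60), Foxp3 (9.21 and 7.29), Rora (8.84 and 7.45) and Maf (8.53 and 7.45). Another Maf probe set above the filter gave a difference of -0.71. Gata3, the Th2 factor, was at 10.17 and 9.74. Factors of naive and thymic T cells had a median of 0.22. Of these, 18 of 22 lay within 2-fold, against 88.2% of all genes, and 3 were higher, against 3.46% of all genes. Lef1, Satb1, Foxp1, Bcl11b and Klf2 differed by -0.03, 0.22, 0.22, 0.37 and 0.27. The 3 higher ones were Sox4 (5.79 in cTh1 and 8.46 in nTh1), Tox (8.42 and 10.28) and Myb (10.07 and 11.39). Another Myb probe set above the filter gave 0.68. The lower one was Egr1 (10.44 and 9.39). Genes of innate-like T cells went to both sides: 11 of 21 were lower in nTh1 by 2-fold or more and 4 higher, with a median of -1.05. The array labelled naive gave 7 of 23 lower and 6 higher. Zbtb16 was among the 4 higher ones. Il17rb, the IL-25 receptor, was at 11.23, 10.33, 5.73 and 8.98 in the array labelled naive, TT naive, cTh1 and nTh1. Xcl1, a chemokine that attracts dendritic cells, was at 10.02, 7.05, 7.18 and 9.36. Tyrobp, a signalling adaptor also carried by myeloid cells, was at 7.32 in cTh1 and 8.59 in nTh1. Cxcr6, another receptor of such cells, was 9.73-fold lower in nTh1, and Plac8 and Slamf7 were 11.9-fold and 21.9-fold lower.

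Cytokine genes differed mostly on the lower side. Of 31 ligands above the filter 14 were at least 2-fold lower and 2 higher, Xcl1 and Tnfsf11, which encodes RANKL (7.54 in cTh1 and 8.72 in nTh1). Il10, an inhibitory cytokine, was at 5.41 on the naive-labelled array, 4.77 in TT naive, 8.28 in cTh1 and 4.92 in nTh1, so only cTh1 was above the filter. Csf1, Ebi3, Lta and Lif were lower by 2.79, 2.43, 1.59 and 1.45. With the array labelled naive in place of nTh1, 8 of 32 ligands were lower and 6 higher. Chemokine receptors differed both ways, with 6 of 21 lower and 2 higher, and with that array 2 lower and 4 higher. Ccr8, a skin-homing receptor, was higher, at 8.10 in cTh1 and 10.02 in nTh1. Ccr2, which brings cells to inflamed tissue, was at 9.74 in cTh1 and 7.76 in nTh1, and Ccr6 at 8.32 and 5.95. The neutrophil receptors Cxcr1 and Cxcr2 were at 10.22 and 10.58 in cTh1 and at 6.38 and 7.31 in nTh1. Ccr7 and S1pr1, which guide cells into and out of lymph nodes, differed by 0.32 and -0.66. Ccr9, a gut and thymus receptor, was at 6.43 and 7.60.

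Costimulatory and inhibitory receptors, many of them induced by activation, differed on the lower side where they passed 2-fold. Of 18 costimulatory receptors 6 were at least 2-fold lower and 0 higher. Within the 11 tumour necrosis factor receptors among them, a subgroup chosen after the values were seen, 5 were lower. Tnfrsf9 (4-1BB) was at 11.38 in cTh1 and 8.55 in nTh1, Tnfrsf4 (OX40) at 11.23 and 8.52, and Tnfrsf18 (GITR) at 11.66 and 9.51. Cd28 and Cd27, carried by resting T cells, differed by 0.29 and -0.32. Of 17 inhibitory receptors 7 were lower and 0 higher. With the array labelled naive in place of nTh1, 6 of 18 were lower and 3 higher, with a median of 0.05. Lag3 was at 9.92 in cTh1 and 6.63 in nTh1, Ctla4 at 10.46 and 7.95, and Havcr2 (TIM-3) at 7.47 and 5.00. Pdcd1 (PD-1) differed by 0.24 and was highest on the array labelled naive, at 10.85. Il2ra, the chain that gives the IL-2 receptor its high affinity, was at 9.04 on the naive-labelled array, 9.66 in TT naive, 12.52 in cTh1 and 10.08 in nTh1, while Il2rb and Il7r differed by -0.64 and -0.01. The regulatory T cell list shares Il2ra, Ctla4, Tnfrsf4, Tnfrsf9 and Tnfrsf18 with activated T cells. In it 12 of 19 members were lower, 0 higher, and nTh1 was the lowest of the 4 arrays in 15. Set against cTh1, the array labelled naive had 7 of 19 lower and 6 higher. Foxp3, its defining factor, was at 8.82, 9.87, 9.21 and 7.29, with nTh1 the lowest.

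Feedback genes of cytokine receptors and of the T cell receptor were read next. The kinase Pim1, a STAT5 target, was at 12.09 in cTh1 and 9.34 in nTh1, Cish at 9.09 and 7.11, Socs3 at 10.01 and 8.13, Pim2 at 11.16 and 9.47, and Socs1 at 10.33 and 9.17. These made up the 5 of 11 SOCS and PIM genes that were at least 2-fold lower, with 0 higher. Other probe sets above the filter gave -0.42 for Pim1, -0.78 for Socs3 and -1.04 for Cish. Socs2 depended on the probe set, at -0.82 for the one with the highest mean over 4 arrays and -5.91 for the one chosen on the cTh1 and nTh1 arrays. The orphan receptors Nr4a1, Nr4a2 and Nr4a3, which respond within hours to T cell receptor signals, were higher in nTh1 by 1.84, 1.69 and 1.62. Nr4a1 was at 12.17 on the naive-labelled array, 11.51 in TT naive, 9.78 in cTh1 and 11.62 in nTh1, so cTh1 was the one low array. Tnfaip3 (A20), a brake on NF-kB, was at 10.23 in cTh1 and 12.41 in nTh1. Among 17 phosphatase, Sprouty and RGS feedback genes 4 were higher, 0 lower and 13 within 2-fold, from Spry1 at -0.90 to Rgs1 at 0.79. These were Rgs2 (9.48 and 11.83), Dusp10 (9.83 and 12.08), Dusp1 (10.69 and 12.08) and Dusp2 (9.55 and 10.85). The early activation gene Cd69 was at 10.89 and 11.95. The EGR factors Egr1, Egr2 and Egr3 differed by -1.04, 0.11 and -0.10. Over the list of recent T cell receptor signal genes 8 of 29 were higher and 5 lower, among the lower ones Ier3 (10.31 in cTh1 and 7.16 in nTh1) and Fosl2 (10.78 and 9.33). The receptor complex and its proximal kinases and adaptors were within 2-fold in 31 of 31 members, against 88.2% of all genes. They ran from Cd3d at -0.82 to Txk at 0.85.

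Genes associated with memory and activated T cells gave 16 of 23 lower and 0 higher, with a median of -1.41. On the array labelled naive 6 of 23 were lower and 0 higher. S100a6, a calcium-binding protein, was at 9.95 on the naive-labelled array, 7.87 in TT naive, 9.98 in cTh1 and 6.77 in nTh1. Anxa2, a membrane-binding annexin, was at 11.33 in cTh1 and 8.52 in nTh1, Lgals1 (galectin-1) at 13.11 and 11.22, and Ly6c2 at 12.80 and 10.28, with near-identical relatives that its probe set may also read. Across this list nTh1 was the lowest of the 4 arrays in 15 of 23 genes, against 34.5% of all genes. Cd44, the surface marker by which memory cells are recognised, was the exception in direction, at 8.75, 7.44, 8.69 and 9.45 on the array labelled naive, TT naive, cTh1 and nTh1. Naive and quiescent T cell genes lay within 2-fold in 21 of 22 cases, against 88.2% of all genes. The remaining gene was Dapl1, at 9.90 on the naive-labelled array, 12.11 in TT naive, 11.70 in cTh1 and 8.28 in nTh1.

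Genes of mitosis were lower in nTh1 almost throughout, while 34 of 36 genes of DNA replication lay within 2-fold, against 88.2% of all genes. Of 43 mitosis and kinetochore genes 42 were at least 2-fold lower, and the remaining one, Ncapg2, differed by -0.93. The median was -1.65. The cytokinesis gene Prc1 was at 9.22 on the naive-labelled array, 8.03 in TT naive, 10.30 in cTh1 and 7.89 in nTh1. The spindle kinase Aurkb was at 10.42, 9.34, 11.45 and 9.17, the mitotic cyclin Ccnb2 at 11.80 in cTh1 and 9.53 in nTh1, and the proliferation marker Mki67 at 11.22, 10.24, 11.23 and 10.03 in the order of Prc1. In this list cTh1 was the highest array in 42 of 43 genes and nTh1 the lowest in 39. With the array labelled naive in place of nTh1, 2 of 43 were at least 2-fold lower. Of 36 replication genes 2 were at least 2-fold lower in nTh1, against 8.30% of all genes, and 0 on the array labelled naive. The replication median was -0.44, against -0.08 over all genes. The nTh1 array was the lowest of the 4 in 19 of 36 (52.8%), against 34.5% of all genes. The 2 lower ones were Rrm2 (10.87 in cTh1 and 8.94 in nTh1) and Tk1 (9.66 and 8.61), both enzymes of nucleotide supply. The 6 MCM helicase subunits differed by between -0.68 and 0.26, with Mcm2 at 10.16 in cTh1 and 10.42 in nTh1, and the sliding clamp Pcna was at 12.02 and 12.12. Of 19 histone genes 13 were lower, H2ax at 12.39 and 10.83 among them, and on the array labelled naive 3 of 19. Cell cycle inhibitors were lower in 4 of 8 cases, and in 2 of 8 on that array. Cdkn1a (p21), which halts the cycle after DNA damage or differentiation, was at 7.77, 6.63, 12.13 and 7.39, which is 26.7-fold lower in nTh1 than in cTh1. The brake of resting T cells, Cdkn1b (p27), was at 11.34 in cTh1 and 10.70 in nTh1.

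**Figure D3:**
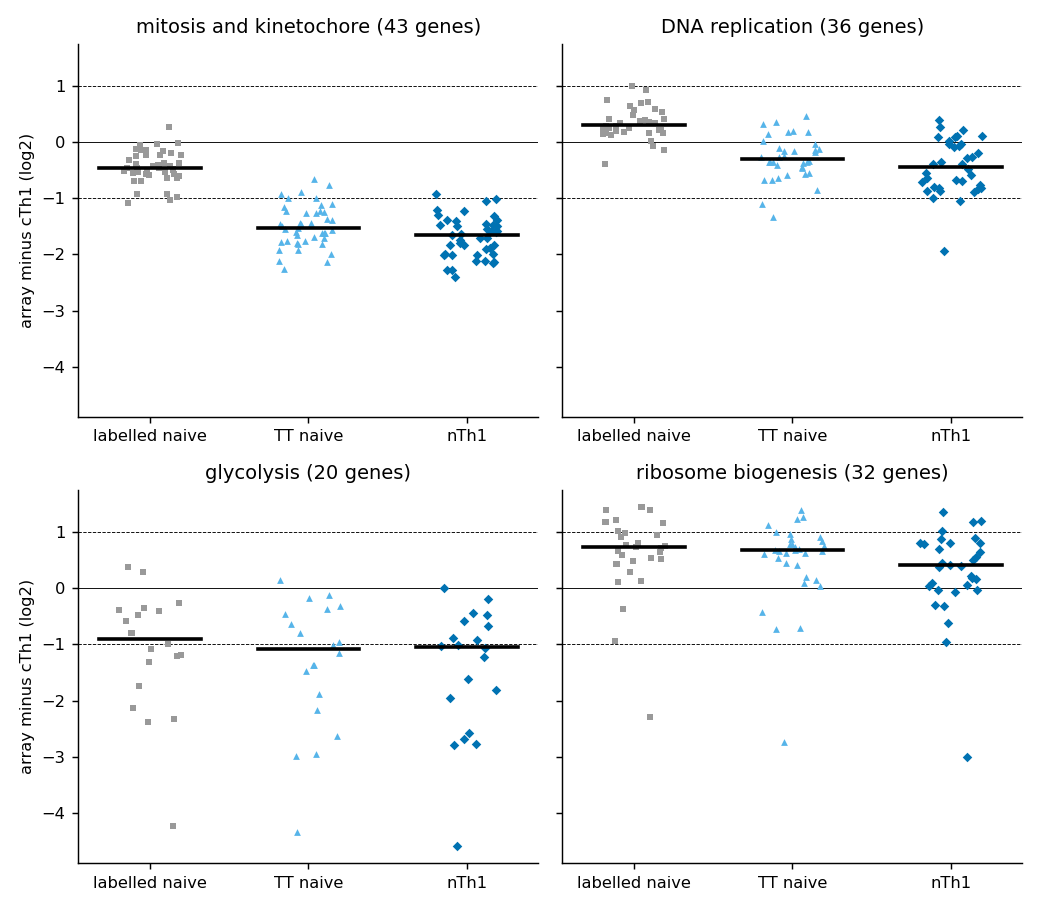
Difference of the array labelled naive, TT naive and nTh1 from cTh1 (y axis, log2) for the members of 4 gene lists above the level filter; each symbol is a gene, the thick bar the median, the dashed lines 2-fold. In nTh1 the medians are -1.65 for mitosis, -0.44 for DNA replication, -1.04 for glycolysis and 0.41 for ribosome biogenesis. The 3 arrays share the values of cTh1.

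Promoters of mitotic genes often carry the cell cycle homology region, TTTGAA, near the start. It was found on either strand in the RefSeq windows of 26 of the 34 measured mitosis genes that have a window, or 77.1% of their 35 windows, against 17.9% of all windows. The stretches below (GRCm38.p6, 5′ to 3′ on the gene's strand, motif in capitals) belong to genes with large differences.
Prc1, chr7:80294416-80294475, plus strand: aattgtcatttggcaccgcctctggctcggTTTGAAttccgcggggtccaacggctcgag
Cdc20, chr4:118437344-118437391, minus strand: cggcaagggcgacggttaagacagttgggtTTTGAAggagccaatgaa
Cdk1, chr10:69352913-69352957, minus strand: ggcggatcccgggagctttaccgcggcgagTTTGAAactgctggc
The motif began 30, 18 and 15 bases before the start in Prc1, Cdc20 and Cdk1, which were lower in nTh1 by 5.32-fold, 4.01-fold and 3.57-fold. These matches are descriptions of the sequence, not evidence of binding in these cells.

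Most genes of glycolysis and of the response to low oxygen were lower in nTh1. Activated T cells take up glucose through GLUT1 and GLUT3 and split it to lactate, and the factor HIF-1 drives many of the same genes. Of 20 glycolysis genes 12 were at least 2-fold lower and 0 higher, and of 21 hypoxia response genes 16 were lower and 0 higher, with a median of -2.04. On the array labelled naive 9 of 20 and 17 of 21 were lower. Slc2a1 (GLUT1) was at 10.78 on the naive-labelled array, 10.63 in TT naive, 12.51 in cTh1 and 10.55 in nTh1. Another Slc2a1 probe set above the filter gave a difference of -0.35. Slc2a3 (GLUT3) was at 11.75 in cTh1 and 8.97 in nTh1, the hexokinase gene Hk2 at 9.28 and 6.59, and Tpi1 at 12.68 and 10.11. Aldoc, an aldolase, was at 7.43, 7.32, 11.67 and 7.08, so that cTh1 stood apart from 3 similar arrays. Among later steps Pgam1, Pgk1 and Pkm differed by -1.62, -1.22 and -1.07, and Gapdh and Ldha by -0.59 and -0.44. The lactate exporter Slc16a3 was at 10.03 in cTh1 and 7.23 in nTh1, and the hexokinase Hk1 differed by -0.20. Egln3, an oxygen-dependent hydroxylase that is itself induced by HIF-1, was at 9.09, 7.27, 12.82 and 8.11. Ak4, a mitochondrial adenylate kinase, was at least 18.4-fold lower in nTh1, Bnip3, a mitophagy receptor, 11.9-fold and Vegfa, the vascular growth factor, 10.4-fold. Hif1a was at 12.19 in cTh1 and 10.30 in nTh1. The labels say nothing of oxygen in the culture.

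The core letters of the hypoxia response element, ACGTG on either strand, were in the windows of 13 of 19 glycolysis genes and 14 of 19 hypoxia response genes. By window the shares were 55.6% and 53.6%, against 19.6% of all windows. Stretches of 2 of the genes with the largest differences (GRCm38.p6, motif in capitals) are given to show it.
Ak4, chr4:101419460-101419524, plus strand: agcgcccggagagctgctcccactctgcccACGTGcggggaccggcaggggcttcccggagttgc
Bnip3, chr7:138909579-138909643, minus strand: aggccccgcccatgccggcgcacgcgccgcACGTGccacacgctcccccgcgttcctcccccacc
Ldha, which differed by -0.44, holds the motif too.
Ldha, chr7:46845630-46845694, plus strand: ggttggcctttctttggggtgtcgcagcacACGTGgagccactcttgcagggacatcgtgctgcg

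Most genes of cholesterol synthesis were lower in nTh1, and the exporter genes Abca1 and Abcg1 were higher. Sterol synthesis genes are turned on together by SREBP-2 when membranes run short of cholesterol, and the exporters are turned on by LXR when there is excess. Over the whole list 15 of 23 genes were at least 2-fold lower and 2 higher, with a median of -1.35. The array labelled naive gave 14 of 23 lower and 1 higher, with a median of -1.14. Of 16 synthesis enzymes, a subgroup chosen after the values were seen, 12 were at least 2-fold lower in nTh1 and 0 higher, with a median of -1.45. Hmgcs1, the first committed enzyme, was at 8.59 on the naive-labelled array, 8.69 in TT naive, 11.01 in cTh1 and 8.09 in nTh1. Cyp51 was at 9.73 in cTh1 and 6.88 in nTh1, and Sqle at 9.81 and 7.28. The exporters Abca1 and Abcg1 were at 8.04 and 10.57 in cTh1 and at 9.33 and 11.68 in nTh1. Scd1, which desaturates fatty acids, was at 5.44, 4.66, 10.38 and 6.39, while Acly, Fasn and Acaca, which build the chain, differed by 0.00, -0.10 and -0.20. The sterol regulatory element TCACCCCAC was in 1 of the 18 measured sterol genes with a window, Hmgcs1, and in 0.551% of all windows. Its stretch in GRCm38.p6 is shown with the motif in capitals.
Hmgcs1, chr13:119690184-119690252, plus strand: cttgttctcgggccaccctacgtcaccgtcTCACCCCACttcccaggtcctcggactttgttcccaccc

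Genes of mitochondria and of ribosome biogenesis were mostly within 2-fold, as were 88.2% of all genes. Of 54 oxidative phosphorylation genes 51 lay within 2-fold, 2 were lower and 1 higher, with a median of -0.25. The exceptions were Ndufb9 at -1.14, Cox7c at 1.17 and Cox5a, at 9.59 in cTh1 and 8.58 in nTh1. In the citric acid cycle Idh1, the cytosolic isocitrate dehydrogenase, was the 1 of 23 genes past 2-fold, at 9.23 in cTh1 and 7.24 in nTh1. Ribosome biogenesis genes had a median of 0.41, with 4 of 32 past 2-fold on the higher side and 1 on the lower. Utp20 was at 7.71 in cTh1 and 9.07 in nTh1, Polr1b, a subunit of RNA polymerase I, at 8.20 and 9.41, and Gnl3 at 8.82 and 9.85, while Heatr1 was higher by 1.17. The lower one was Eif4ebp1, an inhibitor of translation, at 11.36 and 8.36. In this list cTh1 was the lowest of the 4 arrays in 24 of 32 genes, against 29.2% of all genes. Of 14 heat shock genes 3 were at least 2-fold higher, 1 lower and 10 within 2-fold, with a median of 0.23. The higher ones included Hspa1b at 6.44 in cTh1 and 8.58 in nTh1 and Hsph1 at 7.99 and 9.52. Of 25 genes of one-carbon and serine metabolism 23 lay within 2-fold, 2 were lower and 0 higher. Asns, which makes asparagine, was at 9.63 in cTh1 and 7.11 in nTh1, and the nutrient transporter genes Slc7a5 and Slc3a2 differed by -0.27 and 0.24.

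**Figure D4:**
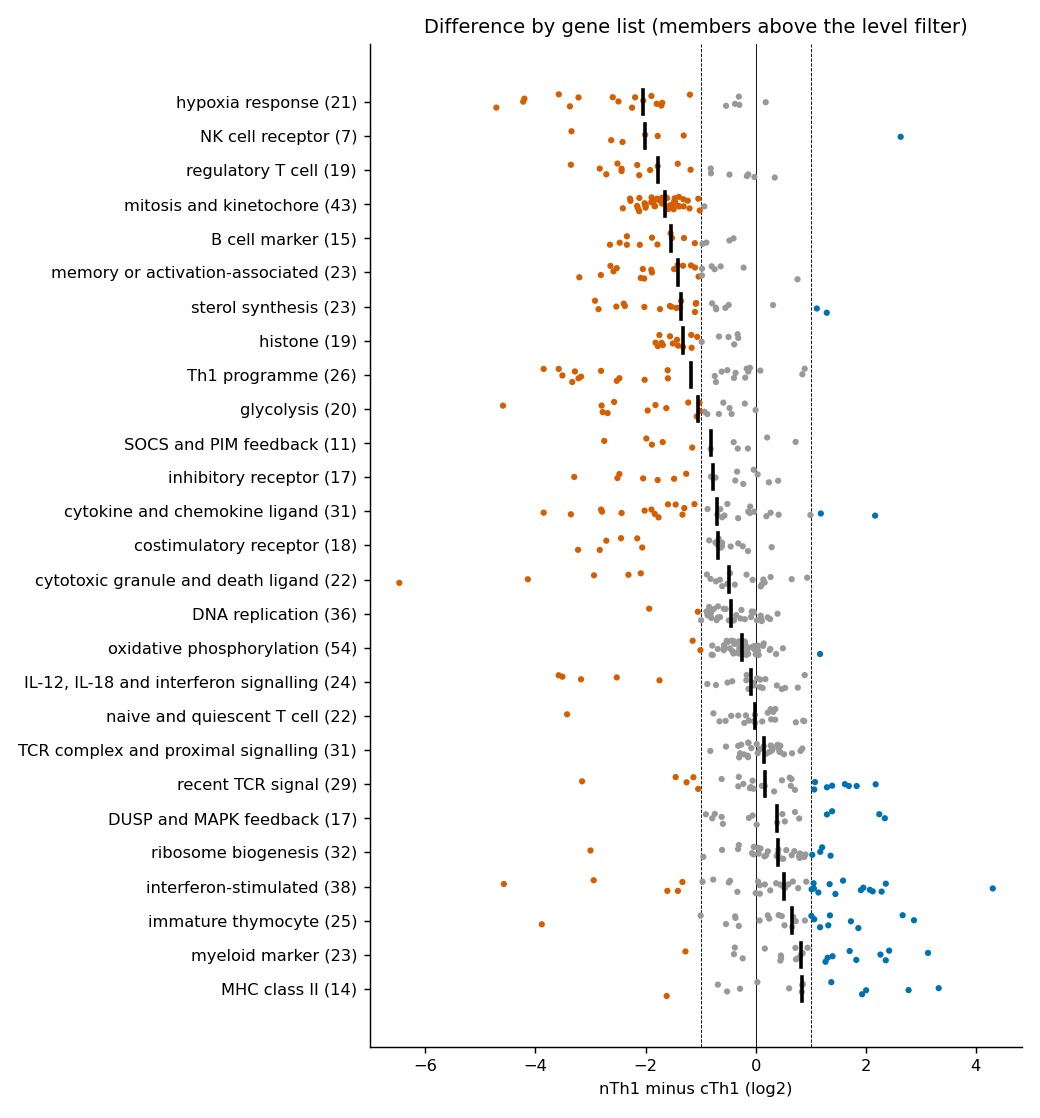
Difference nTh1 minus cTh1 (x axis, log2) for the members above the level filter of 27 gene lists, with their number in parentheses; each point is a gene, black bars are list medians, dashed lines mark 2-fold, and colours mark genes at least 2-fold lower (orange) or higher (blue). Medians run from -2.04 for the hypoxia response to 0.84 for MHC class II, and the interferon-stimulated list has members far to both sides.

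Interferon-stimulated genes went in both directions by family. Interferons bind surface receptors, and the signal turns on antiviral genes through the interferon-stimulated response element. Over the whole list 14 of 38 genes were higher in nTh1 by 2-fold or more and 5 lower. Split by family after the values were seen, the OAS, IFIT, MX and RNA sensor genes gave 14 of 28 higher and 0 lower, with a median of 0.97. The GBP, IRG and IFITM genes gave 0 of 10 higher and 5 lower, with a median of -1.15. Oas2, which makes the signal that activates RNase L, was at 10.94 on the naive-labelled array, 11.29 in TT naive, 7.01 in cTh1 and 11.32 in nTh1, and had the highest difference of any list gene, 4.31. Oasl1 was at 9.20, 8.93, 6.35 and 8.71, Ifit1 at 10.66, 10.42, 8.40 and 10.36, and Irf7, which amplifies the interferon response, at 11.01, 10.91, 9.75 and 11.10. For each of these genes cTh1 was the low array and the other 3 were alike. Ifitm1, which blocks viral entry, was at 5.96, 6.15, 10.38 and 5.81, and Ifitm3 at 7.63, 6.91, 10.88 and 7.94. The GTPase genes Gbp3, Gbp5 and Irgm2 were at 8.78, 9.37 and 11.14 in cTh1 and at 7.18, 8.04 and 9.72 in nTh1. For these, cTh1 was the high array. Stat2 and Irf9 differed by 0.54 and 0.27. With the array labelled naive in place of nTh1 the list gave 14 of 39 higher and 7 lower.

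The core of the response element, TTTCNNTTT on either strand, was in the windows of 23 of the 30 measured list genes with a window. By family it was in 15 of 21 genes of the OAS group and 8 of 9 of the GBP group, so both directions carried it. By window the list's share was 66.7%, against 10.6% of all windows. The stretches (GRCm38.p6, motif in capitals) are shown for 2 genes higher in nTh1 and 2 lower; in Irgm2 the match is on the reverse strand, so its complement is in capitals.
Ifit1 (higher), chr19:34640755-34640823, plus strand: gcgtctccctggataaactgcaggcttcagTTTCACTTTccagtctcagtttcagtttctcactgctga
Oasl1 (higher), chr5:114923033-114923101, plus strand: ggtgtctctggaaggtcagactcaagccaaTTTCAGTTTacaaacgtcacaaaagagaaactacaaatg
Gbp5 (lower), chr3:142496739-142496807, plus strand: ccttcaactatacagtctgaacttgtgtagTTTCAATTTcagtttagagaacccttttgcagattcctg
Irgm2 (lower), chr11:58214884-58214952, plus strand: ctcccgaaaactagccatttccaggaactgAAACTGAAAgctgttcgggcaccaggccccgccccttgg

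**Figure D5:**
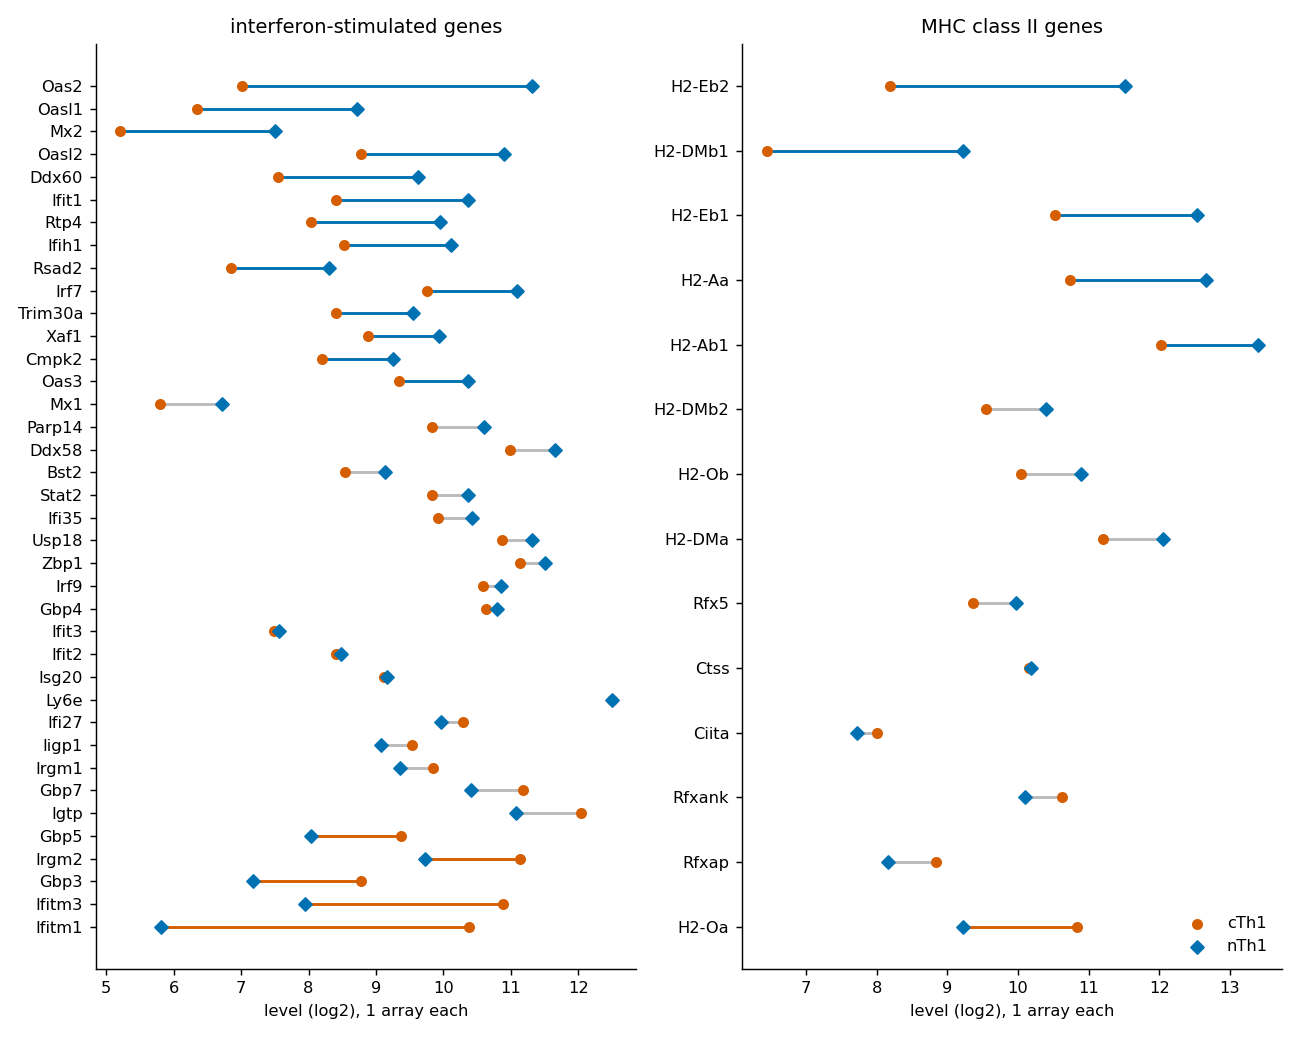
Levels (x axis, log2) of interferon-stimulated genes (left) and MHC class II genes (right) in cTh1 (circles) and nTh1 (diamonds), 1 array each, ordered by difference; blue lines join genes at least 2-fold higher in nTh1 and orange lines genes at least 2-fold lower. Oas2 at the top left has the longest blue line, from 7.01 to 11.32, Ifitm1 at the bottom left the longest orange one, from 10.38 to 5.81, and H2-Oa is the 1 orange line on the right.

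MHC class II genes, the targets of the transgene's product, were higher in nTh1 for the peptide-presenting chains. Of 14 genes 5 were higher by 2-fold or more and 1 lower. H2-Eb2 was at 12.39 on the naive-labelled array, 11.19 in TT naive, 8.18 in cTh1 and 11.51 in nTh1. H2-Eb1 was at 12.49, 11.93, 10.53 and 12.53, and H2-DMb1, a chain of the peptide loader, at 8.96, 8.62, 6.44 and 9.22. H2-Aa and H2-Ab1 were higher by 1.93 and 1.37. H2-Oa, a chain of the inhibitor of loading, was at 10.30, 9.07, 10.83 and 9.22, and its partner H2-Ob was at 10.04 in cTh1 and 10.89 in nTh1. The 4 regulators lay within 2-fold, with Ciita at 8.00 in cTh1 and 7.72 in nTh1 and Rfx5 at 9.37 and 9.97. Whether the Ciita probe set reads the transgene is not given, so it does not check the genotype. B cells and myeloid cells carry these genes as well. B cell markers summed higher in cTh1 and myeloid markers in nTh1, and the part of either cell type in the class II levels was not tested.

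The promoters of class II genes share a set of boxes of which the Y box, ATTGG, binds NF-Y. It was found on either strand in 10 of the 11 measured class II genes with a window, or 83.3% of 12 windows, against 37.4% of all windows. The stretches (GRCm38.p6, Y box in capitals) show 3 genes higher in nTh1 and H2-Oa, which was lower.
H2-Eb2, chr17:34325545-34325609, plus strand: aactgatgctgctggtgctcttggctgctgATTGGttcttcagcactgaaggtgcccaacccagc
H2-Eb1, chr17:34305778-34305842, plus strand: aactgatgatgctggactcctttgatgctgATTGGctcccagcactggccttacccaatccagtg
H2-DMb1, chr17:34153100-34153164, plus strand: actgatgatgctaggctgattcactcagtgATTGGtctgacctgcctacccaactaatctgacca
H2-Oa, chr17:34092306-34092370, plus strand: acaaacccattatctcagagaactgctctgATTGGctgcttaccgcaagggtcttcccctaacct
The box began 100, 59, 61 and 43 bases before the start in H2-Eb2, H2-Eb1, H2-DMb1 and H2-Oa.

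Some genes of immature thymocytes were higher in the thymic nTh1 array. Of 25 genes 9 were higher by 2-fold or more and 1 lower, with a median of 0.66, and the sum over the 26 measured genes was 19174.2 in cTh1 and 25975.0 in nTh1. The other thymic array, TT naive, had a median of 0.12 over cTh1. On the array labelled naive 6 of 24 were higher than in cTh1 and 5 lower, with a median of 0.02. Aqp11 was at 8.82 on the naive-labelled array, 7.75 in TT naive, 7.63 in cTh1 and 10.51 in nTh1. Arpp21 was at 5.94, 6.26, 5.59 and 7.32, and Cd24a, which falls as thymocytes mature, at 8.58, 7.99, 8.83 and 10.18. In these genes nTh1 was the highest array. Within 2-fold were Dntt and Ptcra. Dntt, the enzyme that adds bases to T cell receptor joints, was at 8.58 in cTh1 and 9.47 in nTh1, and Ptcra, the pre-T cell receptor chain, at 7.06 and 7.72. Rag2 stayed below the filter. The lower gene was Cd8a.

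Outside the lists, the genes with the largest differences were mostly lower in nTh1. Serpinb5, a serpin, was at 6.01 on the naive-labelled array, 5.47 in TT naive, 10.87 in cTh1 and 5.59 in nTh1. Prelid2, Car5b and Atp2b4, the last a calcium pump, were lower by 4.49, 4.34 and 3.92. The inflammatory caspases Casp4 and Casp1 were at 9.22 and 8.31 in cTh1 and at 5.47 and 5.01 in nTh1. Itga7, an integrin chain, was at 11.19 and 7.33, Cysltr1, a leukotriene receptor, at 8.56 and 4.89, and the metallothionein gene Mt2 at 9.60 and 6.22. On the higher side Nrgn, a calmodulin-binding protein, was at 6.21 in cTh1 and was at least 10.5-fold higher in nTh1. Tspan9 was at 7.96 in cTh1 and 11.19 in nTh1, and Ctse, an endosomal protease, at 9.80 and 12.43. Drosha, the nuclease that starts miRNA processing, was at 10.88, 10.51, 8.66 and 10.68. Fn1, which encodes fibronectin and is abundant in macrophages, was at 6.25 in cTh1 and 9.06 in nTh1. The part of such cells in its level was not tested. Abundant genes that hardly differed included Eef2 (13.37 in both), Rpl28 (13.39 and 13.41), Pfn1 (13.16 and 13.14) and Cdc42 (12.77 and 12.85).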

How the data were processed

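RNA of 4 mouse T cell populations was measured on Affymetrix arrays, 1 per group, from 300 ng of total RNA per the labels' protocols. The log2 probe set values deposited by the authors came from RMA (background correction, equal array distributions and a summary over probes). The submitters' processing notes name Expression Console 1.3.1 of Affymetrix. Of 41345 probe sets, 23521 had 1 gene symbol in the platform annotation, 1814 several and 16010 none here; the last 2 kinds were left out. The gene IDs of 21994 of 22180 genes were in a RefSeq table (GRCm38.p6), which was used for names and promoter windows. Array medians over named genes were 6.85, 6.76, 6.88 and 6.80 (naive, TT naive, cTh1, nTh1). The number of arrays limits the precision.

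Members and the 57 gene lists were chosen with earlier results of these data known, and the subgroups within lists after the values were seen. Of 1130 listed symbols 1011 matched, 29 of them through older names, and 119 were not analysed here. Any list member could be named; outside the lists, the 20 highest and 20 lowest genes were eligible, passing over predicted genes, small RNAs and gene segments, and 10 abundant genes within 0.1. Genes were counted at 2-fold, with no test and no p-value. A gene that passed the filter through 1 array alone could only differ in that direction at large size. The counting was tested on simulated data. Alternatives were no level filter, a 75th percentile filter, median centring, quantile normalization over named genes, a 3-fold threshold, removal of a loess trend (span 0.3), averaging a gene's probe sets, the array labelled naive in place of nTh1, and, chosen after seeing the data, probe sets and filter from cTh1 and nTh1 alone and marker sums without the member that differed most. Software was Python 3.11.15, pandas 2.3.3, statsmodels 0.14.6, matplotlib 3.10.9 and numpy 2.4.6.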

Additional observations from a re-analysis of the deposited data

How the results depend on the processing

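The counts moved with the threshold, the label and the scaling. Against 444 higher and 1066 lower, centring gave 541 and 929, quantile normalization 619 and 860, and removal of a loess trend 523 and 948. At 3-fold, 139 genes were higher and 448 lower. With the array labelled naive in place of nTh1, 659 genes were lower, and 17 of 56 list medians moved by more than the SD between probe sets. Of 1058 named genes 561 stayed the same and 481 moved. Under that setting 16 named genes past 2-fold changed sign: Atf6 0.13, Capg 0.10, Ccr2 0.0496, Ccrl2 0.12, Cd200 0.63, Cd24a -0.25, Cox5a 0.0934, H2bc18 0.28, Klra6 0.13, Ltf -0.0476, Maf 0.17, Ngp -0.41, Pou5f2 -0.0402, Psmd7 0.50, S100a8 -0.22 and Slc43a1 -0.17. Centring, quantile normalization over named genes and removal of a loess trend kept 56 of 56 list medians within that SD, with shifts of at most 0.079, 0.188 and 0.111, and so did the mean of all probe sets. Averaging a gene's probe sets moved 18 of the 1058 named genes. Without a level filter 2 list medians moved, and with the 75th percentile filter 6. Probe sets chosen on cTh1 and nTh1 alone, added after seeing the data, moved 0 list medians and 2 named genes, Csf2 and Socs2. No paired analysis was possible because each group has 1 array. No value here has a replicate check, probe sets without a gene name were not used, and levels near the filter have the least signal over background.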
